A study of Mus musculus with 6 samples.

Results

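Imprinted growth regulators are genes read mainly from the allele inherited from 1 parent. The 10 described here are H19, Meg3, Rian, Grb10 and Cdkn1c, known to be read mainly from the maternal allele, and Dlk1, Peg3, Mest, Plagl1 and Ndn, known to be read mainly from the paternal allele. They were chosen by symbol, through the Ensembl IDs of GENCODE M21, from the 54532 genes listed, and all 10 were expressed highly enough to be tested. The samples were primary cultures labelled cardiomyocytes, the beating muscle cells of the heart, from mouse neonates aged 1 to 3 days. Their engineered Rit1 locus expresses the M90I variant once Cre recombinase acts on it, and RIT1 is a small GTPase related to RAS. On day 3 of culture the cells received an adenovirus encoding GFP (AdGFP, labelled Rit1 +/+, 3 samples) or GFP with Cre (AdCre, labelled Rit1 M90I/+, 3 samples), and RNA was taken 6 days after infection. Each well held about 1 heart, and the labels number the samples as biological replicates 1 to 3 in each group without naming animals or litters. No group of cells without the M90I allele received Cre, so effects of Cre and of the variant cannot be told apart. The sources used here name no promoter for Cre and no restriction of the virus to a cell type. Markers of other cardiac cell types were expressed too, so levels below are those of whole cultures.

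Imprinted genes carry methylation marks set in the germ line, and many of them act on growth before and shortly after birth. As a rule, paternally read genes promote growth and maternally read genes restrain it, and many belong to a co-regulated network that is expressed highly in fetal and neonatal tissue, heart muscle included, and is turned down after birth. H19 and Plagl1 are known regulators within this network. The comparison of AdCre with AdGFP addresses how transcripts of cardiac cells change when RIT1 M90I is expressed.

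In these cultures Mest was higher in AdCre in each of the 3 numbered pairs, by 2.36 to 3.78 times. No member passed the test without a term for the replicate number. With that term Mest was the 1 member of 10 to pass, in a fit that called 6.15% of all genes. Of 10 fits with that term, 7 called Mest. Cdkn1c was higher and Grb10 lower in AdCre without overlap of the groups, as 7.36% and 8.02% of all genes were. Grb10 passed in no fit, and Cdkn1c in 1 of the 10 with that term. H19 was the most abundant member and moved over a 3-fold range between replicates, with the AdCre sample slightly below its AdGFP partner every time. Leaving out a single sample moved the estimates of all members but Mest and Grb10 by more than 1.5 times or turned their sign. Ndn was almost level across the 6 samples.

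Several members carry microRNAs in their transcripts. RefSeq (GRCm38.p6) places 13 mature microRNAs within 4 of the members, namely 6 in introns of Rian, 3 in exons of Meg3, 2 in an exon of H19 and 2 in an intron of Mest. Those of H19, the most abundant member, and of Mest, the member that passed, are shown, since their hosts carry the main results. They are written 5′ to 3′ with the seed, bases 2 to 8, in capitals. The miR-675 arms lie on the minus strand at chr7:142577112-142577133 and chr7:142577078-142577099, and the miR-335 arms on the plus strand at chr6:30741314-30741336 and chr6:30741354-30741375.
miR-675-5p: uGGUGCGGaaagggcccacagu
miR-675-3p: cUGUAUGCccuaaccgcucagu
miR-335-5p: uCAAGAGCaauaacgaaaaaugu
miR-335-3p: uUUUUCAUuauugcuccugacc
The 4 seeds differ from each other, and each was found in 1 mature mouse microRNA of the table. Libraries of poly-A RNA do not measure mature microRNAs, so the values below are those of the host transcripts. The gene rows of the microRNAs themselves were listed at 0, except for Mir335 at 0.737 FPKM in AdCre replicate 3 and Mir1188 at 0.338 FPKM in AdGFP replicate 3.

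The promoter of Mest is shown as well, as that of the member that passed. Of the 3 start sites of Mest in the RefSeq table, this window (chr6:30737800-30738099, GRCm38.p6, plus strand, from 250 bases before to 50 after the start) belongs to the CpG-rich pair. It holds 17 CpG, against a median of 7 over the 32851 promoters of the table, and 31.4% of those held at least as many. Capitals mark TGCCGC, the motif bound by ZFP57, a zinc finger protein that keeps methylation at imprinted loci, here in its reverse complement GCGGCA.
Mest promoter: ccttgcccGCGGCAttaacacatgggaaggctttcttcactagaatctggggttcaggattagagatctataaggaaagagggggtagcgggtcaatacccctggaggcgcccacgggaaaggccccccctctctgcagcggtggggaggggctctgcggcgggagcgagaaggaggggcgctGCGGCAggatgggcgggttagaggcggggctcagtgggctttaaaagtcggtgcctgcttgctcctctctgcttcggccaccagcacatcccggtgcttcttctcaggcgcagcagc
The motif occurred 2 times in this window, and 11.6% of all promoters held it on either strand at least 1 time. Of the 12 promoters that the table gives for 8 of the members, those of Meg3 (promoter 1), Grb10 (promoter 2), Plagl1 and both CpG-rich starts of Mest held it. TGANTCA, the motif of the AP-1 factors, was searched on both strands and was in none of the 12, against 7.81% of all promoters. A match is a run of letters, and binding was not measured.

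Expression is given as FPKM, read fragments per kilobase of exon scaled to library depth, which allows levels of different genes to be compared. H19, a noncoding RNA, had the highest mean level of the members (220 ± 110 FPKM in AdGFP and 190 ± 89.8 FPKM in AdCre, SD, n = 3) and stood at rank 178 of the 13794 genes tested. In AdGFP it was followed by Grb10, which did not overlap with any other member. Mest, Plagl1, Ndn, Cdkn1c, Peg3, Rian and Meg3 came next in order of their means, and each of these overlapped in range with its neighbours. Dlk1 was last, between 0.43 and 3.63 FPKM, below every value of the other members. In AdCre the order was H19, Mest, Grb10, Cdkn1c, Ndn, Plagl1, Peg3, Rian, Meg3 and Dlk1, and there the neighbours that overlapped were Ndn with Plagl1 and Peg3 with Rian. Mest was thus below Grb10 in all 3 AdGFP samples and above it in all 3 AdCre samples.

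**Figure D1:**
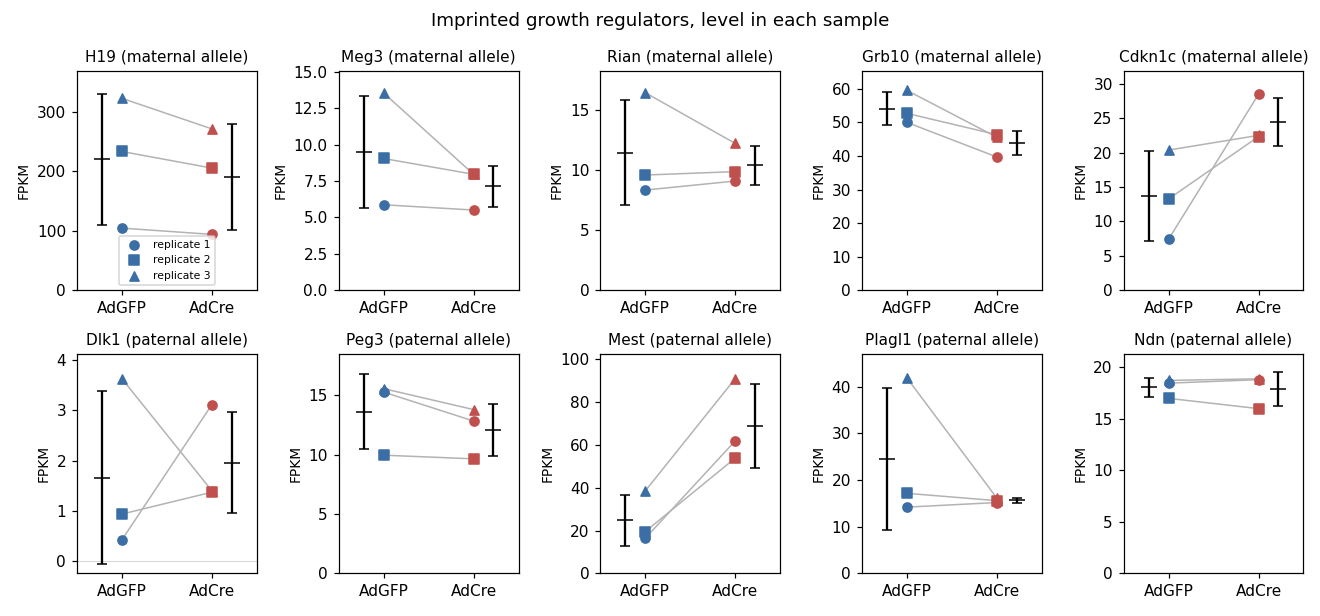
FPKM of the 10 imprinted growth regulators in each of the 6 samples (y axis, from 0), with AdGFP in blue and AdCre in red, symbols for the replicate number, grey lines joining samples of the same number, and bars for the mean ± SD of 3 samples. Mest is the panel in which all 3 lines rise steeply, and in H19 all 3 lines fall. In Plagl1 1 AdGFP sample of 41.9 FPKM stands above the other 5, which lie between 14.2 and 17.2 FPKM.

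Differences were tested with limma on log2(FPKM + 0.1), and all log2 differences below are AdCre minus AdGFP on that scale. Without a term for the replicate number, 0 of 10 members passed at an adjusted p under 0.05, and over all genes tested 0.00725% did (1 gene). At an unadjusted p under 0.05 there were 3 members (Mest, Cdkn1c and Grb10), against 10.2% of all genes. With the replicate number as a block, 1 of 10 members passed (Mest, higher) and 0 passed as lower. The same fit called 6.15% of all genes, 2.64% as higher and 3.51% as lower, so 1 of 10 members is near that background. Members without overlap of the groups were 2 higher (Mest and Cdkn1c) and 1 lower (Grb10), where 7.36% and 8.02% of all genes did so. In 6 of 10 members the 3 pairs moved in 1 direction, as in 48.4% of all genes. The median log2 difference of the members was -0.12, against -0.0022 over all genes tested, with 3 members higher and 7 lower. It was -0.025 without AdCre replicate 1 and 0.082 without AdGFP replicate 3, the 1 sample whose removal turned its sign.

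**Figure D2:**
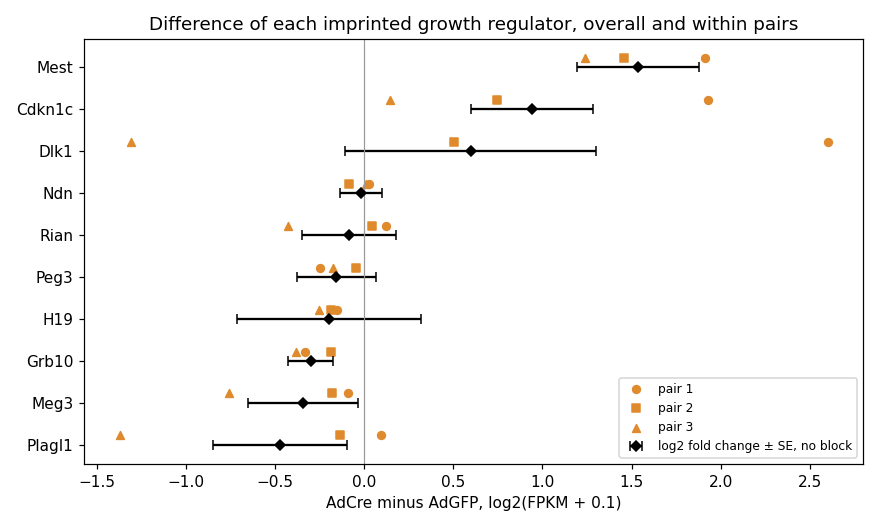
Log2 difference of each member between AdCre and AdGFP (x axis, log2 of FPKM + 0.1). Black diamonds give the estimate without block with its SE, and orange symbols the difference within each numbered pair. The 3 pairs of Mest lie between 1.24 and 1.91, those of H19 between -0.25 and -0.15, and those of Dlk1 between -1.31 and 2.60.

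Mest (ENSMUSG00000051855, chr6:30723547-30748465, plus strand, mm10), a paternally read gene whose product is an enzyme-like protein of the endoplasmic reticulum, is known for promoting growth. Its level was 16.4, 19.5 and 38.5 FPKM in AdGFP replicates 1, 2 and 3 and 61.9, 53.8 and 91.0 FPKM in the AdCre replicates. Every AdCre sample was above every AdGFP sample, and replicate 3 was highest in both groups. Means were 24.8 ± 11.96 and 68.9 ± 19.5 FPKM (SD, n = 3 each), a log2 difference of 1.54 ± 0.34 (SE) with an adjusted p of 0.252 without block. Within the pairs AdCre exceeded AdGFP by 3.78, 2.76 and 2.36 times. With the block the adjusted p was 0.0117 and the 95% interval of the log2 difference was 1.20 to 1.87. Behind these values were between 1598 and 9942 reads a sample. Leaving out replicate 3 from the blocked fit gave an adjusted p of 0.062, no filter on low values 0.0578 and no intensity trend 0.0582, with log2 differences of 1.68, 1.54 and 1.54. The exact two-sided permutation test of log2(FPKM + 0.1) gave p = 0.1, the smallest that 3 samples against 3 allow. Groups without overlap always give that value.

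Of the exon bases of Mest, 23.1% are also covered by Copg2, a coatomer subunit gene that lies on the opposite strand and is known to be read mainly from the maternal allele. Copg2 had 12.3, 14.6 and 14.9 FPKM in AdGFP and 8.29, 12.03 and 10.02 FPKM in AdCre, so it was lower where Mest was higher, without overlap of the groups. Its log2 difference was -0.47, with an adjusted p of 0.416 without block and 0.0484 with it. Whether the authors counted reads by strand is not given in the sources used here, and 17.8% of the exon bases of Copg2 are shared with Mest.

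Cdkn1c (ENSMUSG00000037664, chr7:143458339-143461050, minus strand) encodes p57Kip2, a cyclin-dependent kinase inhibitor that restrains growth and is read from the maternal allele. It had 7.40, 13.3 and 20.4 FPKM in AdGFP replicates 1, 2 and 3 and 28.5, 22.3 and 22.5 FPKM in the AdCre replicates. The groups did not overlap, although the gap between the highest AdGFP sample and the lowest AdCre sample was small. Pair differences were 1.93, 0.75 and 0.14 on the log2 scale for pairs 1, 2 and 3, largest where the AdGFP sample was lowest. Overall it was 0.94 ± 0.34 (SE), with an adjusted p of 0.426 without block and 0.143 with it, so it did not pass. The difference was 0.56 without AdGFP replicate 1, and with the block it was 0.45 without replicate 1 and 1.34 without replicate 3. With voom on recovered reads and the block, the adjusted p was 0.0363. Of its exon bases, 30.6% are shared with an antisense gene (Gm44732), and 373 to 1860 reads stood behind a value.

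Kcnq1, a potassium channel gene in the same imprinted domain as Cdkn1c, had 10.5, 13.3 and 9.66 FPKM in AdGFP and 5.68, 8.26 and 5.18 FPKM in AdCre. It is grouped here as maternally read, but allele use in these cells was not measured. All AdCre values were below all AdGFP values, the opposite of Cdkn1c. The log2 difference was -0.82, with an adjusted p of 0.3004 without block and 0.0151 with it.

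Grb10 (ENSMUSG00000020176, chr11:11930508-12038683, minus strand) encodes an adaptor that binds the insulin and IGF1 receptors and dampens their signals, and is read from the maternal allele outside the brain. AdGFP replicates 1, 2 and 3 had 50.03, 52.7 and 59.6 FPKM, and the AdCre replicates 39.7, 46.4 and 45.6 FPKM. The AdCre samples were all below the AdGFP samples, and the spread within each group was among the smallest of the members. The means were 54.1 ± 4.92 and 43.9 ± 3.65 FPKM (SD, n = 3 each), a log2 difference of -0.30 ± 0.13 (SE). The adjusted p was 0.488 without block and 0.0797 with it, so Grb10 did not pass in either, and in the blocked fits of the alternatives it lay between 0.0777 and 0.262. Ddc, the gene of aromatic L-amino acid decarboxylase beside Grb10, which is read from the paternal allele in heart, had 17.9, 17.0 and 9.76 FPKM in AdGFP and 11.2, 12.2 and 5.69 FPKM in AdCre. Its groups overlapped, but each AdCre sample was below its AdGFP partner, with a log2 difference of -0.64 and an adjusted p of 0.615 without block and 0.0269 with it. That difference was -0.30 without AdCre replicate 3 and -0.92 without AdGFP replicate 3.

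H19 (ENSMUSG00000000031, chr7:142575529-142578143, minus strand) is a noncoding RNA of the maternal allele that restrains growth and lies next to Igf2, the gene of a fetal growth factor of the paternal allele. AdGFP replicates 1, 2 and 3 had 104, 234 and 323 FPKM, and the AdCre replicates 93.9, 206 and 272 FPKM. The groups overlapped almost fully, and replicate 1 was lowest and replicate 3 highest in both. Levels spanned 3.09 times within AdGFP and 2.89 times within AdCre, while AdCre stood at 0.899, 0.880 and 0.841 of AdGFP in pairs 1, 2 and 3. The SD of the log2 pair differences was therefore 0.050, against 0.84 and 0.79 within the groups. The log2 difference was -0.20 ± 0.52 (SE), with an adjusted p of 0.951 without block and 0.173 with it. The 95% interval of the difference ran from -1.42 to 1.03 without block. With the block it ran from -0.37 to -0.017, where the unadjusted p was 0.0368. In that fit 24.7% of all genes were under 0.05 before adjustment. Among the alternatives to the blocked fit, only pseudocount 1 kept H19 under 0.05 before adjustment. With TPM and the block the difference of H19 was -0.11, where the median of all genes was 0.087. Leaving out 1 sample of a pair from the unblocked fit turned the sign, to 0.25 without AdCre replicate 1 and 0.15 without AdGFP replicate 3. Leaving out a whole pair from the blocked fit did not, at -0.22, -0.20 and -0.17 without replicates 1, 2 and 3.

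Igf2 was far below H19, at 1.82, 2.89 and 3.68 FPKM in AdGFP and 2.03, 2.46 and 2.62 FPKM in AdCre. The groups overlapped, and the log2 difference was -0.18 with an adjusted p of 0.889 without block and 0.519 with it. Of its exon bases, 62.8% are shared on the same strand with the annotated gene Gm49394, which was listed at 0 in all 6 samples, so the level of Igf2 is uncertain. The log2 ratio of H19 to Igf2 was 6.16 ± 0.35 in AdGFP and 6.14 ± 0.61 in AdCre (SD, n = 3), a difference of -0.01 (exact two-sided permutation test, p = 1, adjusted p = 1 over 3 ratios).

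Dlk1, Meg3 and Rian lie in 1 imprinted domain of chromosome 12. Dlk1 (ENSMUSG00000040856, chr12:109452823-109463336, plus strand), a transmembrane protein with EGF-like repeats that is read from the paternal allele, had 0.43, 0.94 and 3.63 FPKM in AdGFP replicates 1, 2 and 3 and 3.11, 1.38 and 1.40 FPKM in the AdCre replicates. Values within AdGFP spanned 8.46 times, the widest range of the members, and the 3 pairs moved by 2.60, 0.50 and -1.31 on the log2 scale. The log2 difference of 0.60 ± 0.70 (SE) had an adjusted p of 0.853 without block and 0.638 with it. It was 1.37 without AdGFP replicate 3, -0.03 without AdGFP replicate 1 and 0.29 with a pseudocount of 1. Dlk1 was also the least deeply covered member, with 60 to 564 reads.

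Meg3 (ENSMUSG00000021268, chr12:109541001-109571726, plus strand), a noncoding RNA of the maternal allele, had 5.88, 9.06 and 13.6 FPKM in AdGFP and 5.51, 7.97 and 7.98 FPKM in AdCre. Each AdCre sample was below its partner, by 0.09, 0.18 and 0.76 on the log2 scale in pairs 1, 2 and 3. The log2 difference was -0.34 ± 0.31 (SE), with an adjusted p of 0.792 without block and 0.221 with it, and it was -0.05 without AdGFP replicate 3, -0.65 without AdGFP replicate 1 and -0.17 without AdCre replicate 1. Of the exon bases of Meg3, 6.79% are shared with an antisense gene (Gm26906). Rian (ENSMUSG00000097451, chr12:109603940-109661716, plus strand), the noncoding host of many small nucleolar RNAs further along the same domain, had 8.32, 9.56 and 16.4 FPKM in AdGFP and 9.06, 9.85 and 12.2 FPKM in AdCre. It was slightly higher in AdCre in pairs 1 and 2 and lower in pair 3. Its log2 difference of -0.09 ± 0.26 (SE) had an adjusted p of 0.961 without block and 0.720 with it, and was 0.20 without AdGFP replicate 3 and -0.28 without AdGFP replicate 1. With values rescaled to TPM it was 0.0021, where the median of all genes was 0.087.

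Other genes of the domain were low. Mirg, a noncoding microRNA host, had 1.02 ± 0.417 FPKM in AdGFP and 0.794 ± 0.243 FPKM in AdCre (SD, n = 3), a log2 difference of -0.29 with an adjusted p of 0.870. Rtl1 and Dio3 of the paternal allele were too low to be tested, at no more than 0.070 and 0.261 FPKM in any sample. The log2 ratio of Rian to Meg3 within a sample was 0.28 ± 0.21 in AdGFP and 0.54 ± 0.21 in AdCre (SD, n = 3) and was higher in AdCre in all 3 pairs, by 0.21, 0.22 and 0.33 (exact two-sided permutation test, p = 0.2, adjusted p = 0.45). The log2 ratio of Meg3 to Dlk1 went from 2.84 ± 0.85 to 1.89 ± 0.94 (SD, n = 3), a difference of -0.94 with pairs of -2.69, -0.69 and 0.55 (exact two-sided permutation test, p = 0.3, adjusted p = 0.45). The first was 0.16 without AdGFP replicate 2, and the second ranged from -0.40 without AdCre replicate 1 to -1.42 without AdGFP replicate 3 and was -0.60 with a pseudocount of 1. That test cannot go below 0.1 here, and the paired exact permutation test (sign flips of 3 pairs) gave 0.25 for Rian to Meg3, the smallest p it allows, so neither could pass by design.

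Plagl1 (ENSMUSG00000019817, chr10:13060504-13131694, plus strand) encodes ZAC1, a zinc finger transcription factor of the paternal allele. It had 14.2, 17.2 and 41.9 FPKM in AdGFP replicates 1, 2 and 3 and 15.2, 15.6 and 16.1 FPKM in the AdCre replicates. The 3 AdCre samples were almost alike (15.6 ± 0.481 FPKM, SD), and AdGFP replicate 3 stood alone. The log2 difference of -0.47 ± 0.38 (SE) had an adjusted p of 0.761 without block and 0.354 with it, and was 0.0019 without AdGFP replicate 3 and -0.78 without AdGFP replicate 1.

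Peg3 (ENSMUSG00000002265, chr7:6703892-6730431, minus strand), a paternally read zinc finger gene, had 15.3, 9.94 and 15.5 FPKM in AdGFP and 12.8, 9.64 and 13.8 FPKM in AdCre. The AdCre sample was the lower of each pair, and replicate 2 was lowest in both groups. The log2 difference was -0.16 ± 0.22 (SE), with an adjusted p of 0.889 without block and 0.312 with it, and it was -0.36 without AdGFP replicate 2 and -0.0022 without AdCre replicate 2. Ndn (ENSMUSG00000033585, chr7:62346569-62350262, plus strand), which encodes necdin, a protein of the MAGE family that restrains proliferation, is paternally read too. Its values were 18.5, 17.0 and 18.7 FPKM in AdGFP and 18.8, 16.0 and 18.9 FPKM in AdCre. The log2 difference was -0.02 ± 0.12 (SE), with a 95% interval of -0.30 to 0.26 and an adjusted p of 0.987 without block and 0.923 with it. With values rescaled to TPM it was 0.073, close to the 0.087 by which that scaling moved the median of all genes.

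Levels of many members followed the replicate number. Replicate 3 was the highest of AdGFP in 10 of 10 members and the highest of AdCre in 7 of 10. Replicate 1 was the lowest in both groups for 5 members (H19, Meg3, Rian, Grb10 and Plagl1). For 5 members (H19, Grb10, Peg3, Mest and Ndn) the pair differences spread less than the values of either group. For Cdkn1c and Dlk1 they spread more than both, with log2 SDs of 0.91 and 1.96 against 0.73 and 1.43 in AdGFP and 0.20 and 0.64 in AdCre. The replicate number was seen in genes at large too. Over the 13794 genes tested, deviations from the group means correlated at 0.568, 0.268 and 0.506 between samples of the same number. How many of all genes share the orders given here was not counted, so these are no trait particular to the members.

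Markers of cardiac cell types also moved with the samples. Without block none of the markers passed in any list, and the counts under the block stand against 2.64% of all genes called as higher and 3.51% as lower. Those counts rest on the fit, which called 0 genes of any kind without an intensity trend and 1 without replicate 3. All 12 markers of cardiomyocytes, the labelled cell type, were expressed in every sample (Tnnt2 between 210 and 537 FPKM). Summed over the list they were at 3619, 3297 and 2311 FPKM in AdGFP replicates 1, 2 and 3 and at 2018, 2289 and 1290 FPKM in the AdCre replicates, lower in AdCre without overlap, with 8 of 12 passing as lower under the block. The 14 fibroblast markers, Col1a1 among them at 1389 to 2450 FPKM, summed to 3037, 4206 and 5836 FPKM in AdGFP and to 2804, 3773 and 4365 FPKM in AdCre, lowest in replicate 1 and highest in replicate 3 of both groups, as H19 was and as the endothelial and macrophage sums were. Single fibroblast markers went both ways, with 5 higher and 9 lower in AdCre, of which 3 passed as lower and 0 as higher under the block. The fibroblast sum was above the cardiomyocyte sum in every sample but AdGFP replicate 1. Sums over different genes do not measure shares of cells. Endothelial markers summed to 119, 134 and 172 FPKM in AdGFP and to 169, 181 and 241 FPKM in AdCre, with 12 of 12 higher and 5 passing under the block. Macrophage markers summed to 21.6, 70.3 and 98.5 FPKM in AdGFP and to 39.2, 94.3 and 123 FPKM in AdCre, with 10 of 10 tested higher and 1 passing under the block.

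Mural markers summed to between 758 and 1218 FPKM in AdGFP and between 912 and 1125 FPKM in AdCre, with 0 of 8 passing, and epicardial markers to between 246 and 414 FPKM and between 372 and 491 FPKM, with 2 of 8 passing as higher and 1 as lower under the block. Of the 8 epicardial markers, 3 were higher and 5 lower, with a median log2 difference of -0.26. None of the markers was at 0 in all samples. The share of these cell types in the differences of the members was not tested. In bulk samples such as these, more or fewer cells of a type and more or less RNA per cell cannot be told apart. Of 12 proliferation genes, 10 were higher and 1 passed under the block.

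**Figure D3:**
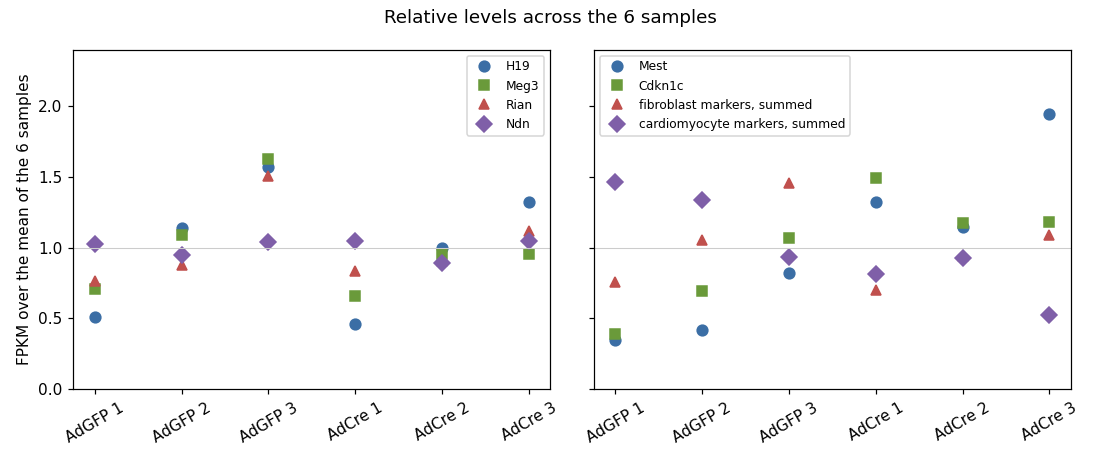
Level in each sample divided by the mean of the 6 samples (y axis, FPKM over mean), for H19, Meg3, Rian and Ndn on the left and for Mest, Cdkn1c and the summed fibroblast and cardiomyocyte markers on the right. H19 runs from 0.509 in AdGFP replicate 1 to 1.57 in AdGFP replicate 3 and from 0.457 to 1.32 in AdCre, and the fibroblast sum runs from 0.759 to 1.46 and from 0.7003 to 1.09, while Ndn stays between 0.890 and 1.05.

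Both parental classes held higher and lower members. Of the 5 maternally read members, 1 was higher and 4 lower, with a median log2 difference of -0.20, and of the 5 paternally read ones, 2 were higher and 3 lower, with a median of -0.02. Among 42 other imprinted genes, 31 reached the level needed for testing and 11 did not. Of the 31, 13 were higher and 18 lower, with a median log2 difference of -0.13, and 0 passed without block (7 at an unadjusted p under 0.05, against 10.2% of all genes). With the block 4 passed, against 6.15% of all genes, which are Nnat as higher and Kcnq1, Ddc and Copg2 as lower. Groups did not overlap for 4 higher and 5 lower genes, against 7.36% and 8.02% of all genes.

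Nnat, which encodes neuronatin, a small membrane protein of the paternal allele, had 0.708, 0.798 and 1.35 FPKM in AdGFP and 2.20, 1.78 and 3.02 FPKM in AdCre. All AdCre values exceeded all AdGFP values, from 32 to 153 reads a sample. The log2 difference was 1.23, with an adjusted p of 0.288 without block and 0.0262 with it. With a pseudocount of 1 the difference was 0.77. All 4 blocked calls were lost when replicate 3 was left out (adjusted p 0.117 for Nnat, 0.0851 for Kcnq1, 0.117 for Ddc and 0.190 for Copg2) and when replicate 2 was left out (0.0734, 0.0524, 0.0632 and 0.0953), and that of Copg2 also without replicate 1 (0.0915). In the same order of genes, they were lost too without a filter on low values (0.0928, 0.0626, 0.0840 and 0.125) and without an intensity trend (0.0582, 0.0628, 0.0816 and 0.118). Copg2 further missed the threshold with TPM (0.0755) and quantile normalization (0.0547).

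**Figure D4:**
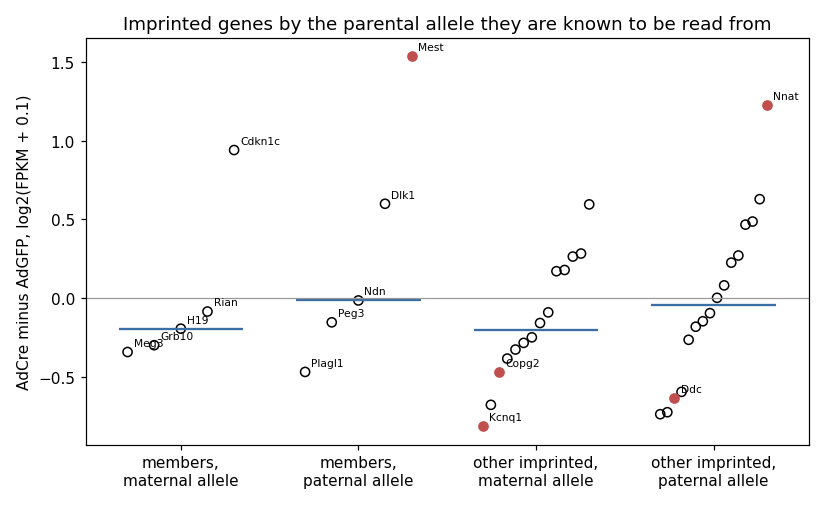
Log2 difference between AdCre and AdGFP (y axis, log2 of FPKM + 0.1) of the members and of the other imprinted genes tested. They are split by the parental allele they are grouped under, with Gnas, read from both in different transcripts, left out. Each circle is a gene, filled red where it passed with the replicate block, and blue lines are medians, at -0.20 and -0.02 for the members and at -0.21 and -0.05 for the other genes.

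Several members act on insulin and IGF signals. Of 10 genes of that axis tested, 6 were higher and 4 lower, and 0 passed with limma with or without block, while 1 and 2 were at an unadjusted p under 0.05, against 10.2% and 24.7% of all genes. The 2 under the block, named after their values were seen, were Igf2bp3, an RNA-binding protein gene, and Igf1, the ligand, both higher in all 3 pairs. Igf2bp3 had 2.86, 3.28 and 3.61 FPKM in AdGFP and 4.27, 4.01 and 4.51 FPKM in AdCre, a log2 difference of 0.39 with a blocked adjusted p of 0.103. Igf1 had 7.59, 5.996 and 8.23 FPKM in AdGFP and 10.5, 7.29 and 10.7 FPKM in AdCre, a log2 difference of 0.37 with a blocked adjusted p of 0.0652. Igf1r, the receptor of IGF1 and IGF2, differed by -0.05 on the log2 scale, Insr, the insulin receptor, by -0.24, and the receptor substrates Irs1 and Irs2 by 0.03 and 0.13. Igf2r, an imprinted gene whose product takes up IGF2 for degradation, had 100 ± 2.95 FPKM in AdGFP and 114 ± 15.9 FPKM in AdCre (SD, n = 3), a log2 difference of 0.18. Rit1 itself was at 8.55 ± 0.774 and 9.19 ± 0.351 FPKM, a log2 difference of 0.11 with an adjusted p of 0.840, and gene totals do not separate the M90I allele from the other.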

How the data were processed

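RNA of 6 cultures was sequenced after poly-T selection and random priming. The deposited values are FPKM per gene and sample, made by the authors without pooling replicates. The submitters' processing notes name fastp, STAR 2.5, HTSeq 0.6.1 and mm10, with roles not given; annotation and use of strand are not given in the sources used here. Symbols, exons and coordinates came from GENCODE M21 (GRCm38, the same build). FPKM times exon length fell within 0.02 of whole reads for 97.7% to 97.9% of values under 200 reads, which gave 25.3 to 26.5 M reads (M, megareads) in AdGFP and 26.0 to 32.4 M reads in AdCre.

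Tests were run on log2(FPKM + 0.1) for 13794 genes whose mean reached 0.5 FPKM, by limma 3.58.1 (R 4.3.3) with an intensity trend and Benjamini-Hochberg adjustment over all of them. Fold changes of low genes are understated on that scale. The script was tested on simulated data. Ratios used exact two-sided permutation tests. Samples of the same group were further apart than counting alone allows (chi-square per degree of freedom 44.2 to 143), and p-values measure only the spread between these samples.

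The labels do not say what a replicate number marks. Deviations from the group means correlated at 0.568, 0.268 and 0.506 between samples of the same number and at -0.497 to 0.036 between others. Deviations sum to 0 within a group for every gene, so these correlations are not independent of each other. Samples of the same number were treated as pairs, although only the values say so. The replicate block is therefore given beside results whose call it changes, and for members throughout.

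Members and lists were chosen with earlier results of these data known. The text names all members, genes of their loci, other imprinted genes called in either fit, 5 genes of the IGF axis by that rule (Igf1 and Igf2bp3 were added after their values were seen, and Igf2 is a gene of a member's locus) and at most 3 markers a list. Alternatives were other pseudocounts (1 and 0.01), filters, scalings, no trend, the block and leaving out samples. Voom on recovered reads, the paired exact test of the ratios and the variants of the blocked fit were chosen after seeing the data.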

Additional observations from a re-analysis of the deposited data

How the results depend on the processing

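No member passed in any of 16 unblocked fits. Blocked fits called 1 member (Mest) as run, with pseudocount 1, with TPM and with quantile normalization, and 2 (Mest and Cdkn1c) with voom on recovered reads. Without a filter and without a trend the replicate block called 0, and without a replicate number 0 to 1. Of the other imprinted genes, the block called 4, 4 with pseudocount 1, 3 with TPM, 3 with quantile normalization, 8 with voom, 0 without a filter, 0 without a trend and 0 to 3 without a replicate number. Over all genes, the unblocked count of 1 became 3 with pseudocount 1, 0 without a filter, 4 without a trend, 0 with voom and 0 to 2 without a sample. With the replicate block it was 848, 784 with pseudocount 1, 17 without a filter, 875 with TPM, 762 with quantile normalization, 0 without a trend, 1738 with voom and 811, 152 and 1 without replicates 1, 2 and 3. Beyond having fewer samples or more genes, the cause of these differences was not tested.

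Estimates that turned in sign were all far from the threshold. Rian was at 0.0021 with TPM, with and without block, and Ndn at 0.073 with TPM in both, at 0.047 with voom and at 0.048 with voom and block. Without a sample, the unblocked estimate of H19 ranged from -0.66 (without AdGFP replicate 1) to 0.25 (without AdCre replicate 1), while in all 10 blocked fits it lay between -0.22 and -0.11. Without a sample or replicate number, that of Rian ranged from -0.28 to 0.20 (0.083 with the block and no replicate 3), of Dlk1 from -0.034 to 1.37 and with the block from -0.40 to 1.55, of Plagl1 from -0.78 to 0.0019, of Ndn from -0.060 to 0.062 (0.019 with the block and no replicate 2) and of the log2 ratio of H19 to Igf2 from -0.26 to 0.33. The TPM values stand beside a shift of all genes of 0.087. The median of the members ranged from -0.23 to 0.082, the latter without AdGFP replicate 3. Grb10, Meg3, Peg3, Mest and Cdkn1c kept their direction in all alternatives. Among the members, Dlk1 had the fewest reads.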
